A study of Rattus norvegicus with 15 samples.

Results

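The triad is the junction where a transverse tubule of the muscle fiber meets 2 terminal cisternae of the sarcoplasmic reticulum. The genes described here encode proteins that build the triad, bind its ryanodine receptors, or bind or move calcium, and a methyltransferase, Mettl21c. They are 10 genes, Jph1, Jph2, Trdn, Mettl21c, Slc8a1, Ryr1, Casq1, Atp2a1, Fsd2 and Srl, and they were followed through all 14 probe sets of the array whose only gene symbol is one of them, of 31042 probe sets tested and 14217 genes with a probe set of their own. Trdn has 4 of these probe sets, Slc8a1 has 2 and each of the other 8 genes has 1.

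Gastrocnemius RNA was measured on Affymetrix GeneChip arrays of the rat genome in 15 male Wistar rats, each with an array of its own. The rats were bought at 3.5 weeks of age, received 15% casein for 3 days, and then a diet of 15% casein (CN, n = 4) or 8% casein (LP, n = 4) for 4 weeks. The late groups, CN-R (n = 3) and LP-R (n = 4), came from the same diets and were sampled on day 84. All were fasted for 16 h before sampling, and the rats put on arrays are said to have had body weights near the average of their group, which limits how far they stand for the spread of each group. The labels number the arrays of a group as biological replicates, and they were treated as separate rats, although the methods can be read as taking 1 animal from each group. If arrays shared an animal, the p-values would measure technical spread. The methods return LP-R rats to the control diet after restriction, whereas the labels keep them on their previous diet. The title and description of CN-R replicate 4 name a control and its treatment field names protein restriction, and it was kept in CN-R. The samples are whole muscle, so fewer cells of a type and less RNA per cell cannot be told apart.

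In a muscle fiber, an action potential runs down the transverse tubule, the voltage sensor in its membrane (Cacna1s) moves, and the ryanodine receptor Ryr1 in the facing reticulum opens and releases calcium onto the myofibrils. Junctophilins hold both membranes together, triadin ties the calcium-binding protein calsequestrin to the release channel, and the calcium pump Atp2a1 returns calcium to the reticulum to end the contraction. The gastrocnemius of the rat is a mixed, mostly fast muscle, and in fast fibers this cycle is quick.

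The deposited log2 signals were summarized in a way that pulls a probe set to a constant when its probes disagree. A probe set with an SD of 0.01 or less over the arrays compared was taken as nearly constant, which leaves 3974 varying probe sets in CN and LP and 3100 in CN-R and LP-R. A nearly constant probe set does not show that the RNA did not change. Early and late arrays were summarized apart, so log2 signals of CN and LP are not set against those of CN-R and LP-R. As a check of the tissue, 10 of 11 listed fast fiber genes had a probe set, with mean log2 signals of 11.52 to 14.11, whereas the 6 heart muscle genes lay near constant at 5.96 to 6.30 and the 4 leukocyte genes at 6.16 to 6.71.

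Restriction was compared with its control by rank products, which ranks the change of every probe set over all pairs of arrays and estimates the proportion of false positives (pfp) from permuted values, and a probe set was called at a pfp up to 0.05. In LP against CN, rank products called Jph2, Slc8a1 and Fsd2 higher and Trdn and Mettl21c lower, each through 1 probe set, by 1.12- to 1.24-fold. The varying probe sets of Ryr1, Casq1 and Jph1 and a second one of Trdn were not called, and the probe sets of Atp2a1 and Srl were nearly constant. In LP-R against CN-R, none of the 14 probe sets was called. Limma, which takes the spread of each probe set into account, called none in either comparison after Benjamini-Hochberg adjustment over all probe sets. When rank products was run over the varying probe sets alone, none of the 5 calls remained, and over the probe sets above the median signal the 3 calls of higher signal were lost.

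Of the called genes, 4 have a promoter entry in RefSeq (build GRCr8), and these 4 are shown because they are where the called members could share a motif. Each runs from 250 bases before to 50 bases after the start of the gene, in the direction of transcription. Capitals mark the E-box CANNTG, which myogenic factors such as MyoD bind, and the core TTTCC of sites for NFAT, the factor that calcineurin activates, on either strand. No E-box overlaps an NFAT core in these promoters.
Jph2 promoter, chr3:172477872-172478171, minus strand: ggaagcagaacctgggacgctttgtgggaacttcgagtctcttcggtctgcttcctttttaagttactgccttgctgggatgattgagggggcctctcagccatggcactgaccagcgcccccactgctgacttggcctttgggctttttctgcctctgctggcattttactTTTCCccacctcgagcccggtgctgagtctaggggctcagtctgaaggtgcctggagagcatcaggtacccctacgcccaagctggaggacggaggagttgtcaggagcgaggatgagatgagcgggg
Slc8a1 promoter, chr6:19023309-19023608, plus strand: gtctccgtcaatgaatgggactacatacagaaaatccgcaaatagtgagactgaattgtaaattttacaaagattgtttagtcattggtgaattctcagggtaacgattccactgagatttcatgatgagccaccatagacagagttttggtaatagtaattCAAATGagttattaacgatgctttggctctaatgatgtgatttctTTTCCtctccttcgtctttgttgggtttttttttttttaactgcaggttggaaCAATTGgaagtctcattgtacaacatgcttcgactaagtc
Fsd2 promoter, chr1:144926115-144926414, minus strand: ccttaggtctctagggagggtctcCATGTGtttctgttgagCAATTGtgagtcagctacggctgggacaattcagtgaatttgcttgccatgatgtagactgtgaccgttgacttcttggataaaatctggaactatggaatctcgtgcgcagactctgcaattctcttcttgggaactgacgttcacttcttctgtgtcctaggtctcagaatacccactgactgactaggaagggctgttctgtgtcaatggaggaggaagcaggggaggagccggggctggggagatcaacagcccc
Trdn promoter, chr1:26229550-26229849, minus strand: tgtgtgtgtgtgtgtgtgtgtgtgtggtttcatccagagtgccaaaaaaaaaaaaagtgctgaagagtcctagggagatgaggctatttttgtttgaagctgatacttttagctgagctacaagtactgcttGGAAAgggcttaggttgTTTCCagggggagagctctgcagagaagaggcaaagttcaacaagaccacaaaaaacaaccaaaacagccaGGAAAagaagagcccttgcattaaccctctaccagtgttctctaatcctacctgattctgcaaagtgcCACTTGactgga
The Jph2 promoter held no E-box and 1 NFAT core, that of Slc8a1 held 2 E-boxes and 1 core, that of Fsd2 held 2 E-boxes and no core, and that of Trdn held 1 E-box and 3 cores. These letters are frequent: 72.1% of 33469 rat promoters of the same length hold an E-box and 62.7% an NFAT core. The MCAT element CATTCC, present in 14.2% of promoters, and the MEF2 site, present in 3.29%, were found in none of the 7 member promoters with an entry, which also include Ryr1 (1 E-box), Casq1 (3 E-boxes) and Atp2a1 (1 E-box and 1 core). A match is only a match of letters in this window, which rests on the annotated start of each gene. At that start the Slc8a1 window holds a run of T followed by AACTGCAG, letters also found where an intron ends. Whether this window is a promoter used in muscle was not tested.

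The junctophilins bridge the gap between tubule and reticulum. Jph2 (1372159_at) had log2 signals of 9.85, 9.91, 9.79 and 9.85 in CN replicates 1 to 4, and of 10.12, 10.07, 10.01 and 9.89 in LP replicates 1 to 4. LP replicates 1 to 3 lay above every CN array and LP replicate 4 lay just below CN replicate 2, so the groups overlap at 1 rat each. The LP mean was 10.02 ± 0.10 and the CN mean 9.85 ± 0.05 (SD, n = 4 each), a 1.13-fold difference (log2 change 0.18, SE 0.06, pfp 0.0221). The exact permutation p was 0.0571, where 0.0286 is the smallest that 4 arrays against 4 allow, and limma gave an unadjusted p of 0.0161 and an adjusted p of 0.620. The call was lost without LP replicate 1, 2 or 3, with changes of 0.14, 0.16 and 0.18.

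Jph1 (1376015_at), the junctophilin found mainly in skeletal muscle, was measured at 10.57, 10.60, 10.66 and 10.74 in CN and at 10.56, 10.64, 10.55 and 10.69 in LP. The arrays of both groups lie among each other (log2 change −0.03, SE 0.05), and the probe set was not called.

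Triadin spans the junctional membrane and links Ryr1 with calsequestrin, and its 4 probe sets did not behave alike. On these arrays a name ending in a_at marks probes shared by several transcripts of a gene, and one ending in x_at marks probes that may also bind other transcripts. The probe set 1371138_at read 9.46, 9.31, 9.58 and 9.35 in CN and 9.21, 9.27, 9.07 and 9.28 in LP. All LP arrays lay below all CN arrays, with a gap of 0.026 between LP replicate 4 and CN replicate 2. The mean fell from 9.42 ± 0.12 to 9.21 ± 0.09 (SD, n = 4 each), which is 1.16-fold lower (log2 change −0.21, SE 0.08, pfp 0.00968), with an exact permutation p of 0.0286 and a limma adjusted p of 0.636. Without CN replicate 1 or 3 the call was lost (−0.20 and −0.16). The probe set 1370738_a_at read 11.62, 11.69, 11.67 and 11.63 in CN and 11.63, 11.61, 11.41 and 11.72 in LP. LP replicate 3 was the lowest of these and LP replicate 4 the highest, and the change of −0.06 (SE 0.07) was not called. The other probe sets, 1370198_at at 12.60 and 1370739_x_at at 7.65, were nearly constant over CN and LP.

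Ryr1, Casq1 and Atp2a1 carry the release, storage and uptake of calcium in fast fibers. Ryr1 (1390355_at) read 12.01, 12.09, 11.96 and 12.00 in CN and 12.00, 12.06, 12.04 and 12.00 in LP. Casq1 (1388604_at), the calcium store of the cisternae, read 13.11, 13.15, 13.12 and 13.14 in CN and 13.20, 13.12, 13.05 and 13.12 in LP. Neither separated the groups: the log2 changes were 0.01 (SE 0.03) for Ryr1 and −0.0067 (SE 0.032) for Casq1. Atp2a1 (1368108_at) stayed near 13.73 and Srl (1371746_at), which encodes the calcium-binding glycoprotein sarcalumenin of the reticulum, near 11.49 on all 8 arrays. For these last 2 genes the summarized values hold no difference to test.

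Fsd2 encodes a protein of the fibronectin and SPRY domain family that binds ryanodine receptors, as shown in mouse. Its probe set (1379921_at) read 9.28, 9.34, 8.97 and 8.96 in CN and 9.49, 9.37, 9.22 and 9.12 in LP. CN replicates 3 and 4 were the lowest of all, but CN replicates 1 and 2 lay above LP replicates 3 and 4, so the groups overlap widely. Rank products called it higher (1.12-fold, log2 change 0.16, SE 0.13, pfp 0.0444), whereas the exact permutation p was 0.257 and the limma adjusted p 0.811. The call was lost without any 1 of 6 arrays, with changes of 0.10 to 0.23 over all 8 omissions.

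Mettl21c is a protein lysine methyltransferase of skeletal muscle. Its probe set (1380519_at) read 8.49, 8.44, 8.47 and 8.09 in CN and 8.27, 8.05, 7.98 and 7.94 in LP. CN replicate 4 stood apart from the other CN rats and was the only CN array below an LP array, LP replicate 1. The change was the largest in size among the varying member probe sets, from 8.37 ± 0.19 to 8.06 ± 0.15 (SD, n = 4 each), or 1.24-fold lower (log2 change −0.31, SE 0.12, pfp 0.00262). The exact permutation p was 0.0571 and the limma adjusted p 0.639. The call held without each array in turn, with changes of −0.40 to −0.27.

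Slc8a1 encodes the sodium-calcium exchanger of the plasma membrane, which moves calcium out of the cell and is best known from heart muscle. The probe set 1372449_at read 7.27, 7.23, 7.19 and 7.23 in CN and 7.61, 7.43, 7.28 and 7.41 in LP. Every LP array was above every CN array, but LP replicate 3 exceeded CN replicate 1 by only 0.013. The mean rose from 7.23 ± 0.03 to 7.43 ± 0.13 (SD, n = 4 each), a 1.15-fold difference (log2 change 0.20, SE 0.07, pfp 0.0113), with an exact permutation p of 0.0286 and a limma adjusted p of 0.628. The call was lost without LP replicate 1 (0.14) or LP replicate 2 (0.20). The other probe set of the gene, 1370588_a_at, was nearly constant at 5.84.

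Endothelial, smooth muscle and nerve cells of the muscle also make Slc8a1. The summed level of 4 measured endothelial genes was 10.57 to 10.67 in CN and 10.71 to 10.78 in LP on the log2 scale, without overlap. The endothelial growth factor receptor Kdr was the 1 of them called higher, with means of 8.65 in CN and 9.05 in LP. The means of Tek were 8.97 and 9.07 and those of Vwf 7.42 and 7.41, and Pecam1 was nearly constant at 8.89. Summed smooth muscle genes were 10.29 to 10.54 in CN and 10.16 to 10.44 in LP, and both of the varying ones had a lower mean in LP (median −0.13), 1 of them called lower, and the nerve gene measured was 6.92 to 7.16 and 7.01 to 7.20. The 6 heart muscle genes were nearly constant. The part of these cells in the Slc8a1 change was not tested.

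**Figure D1:**
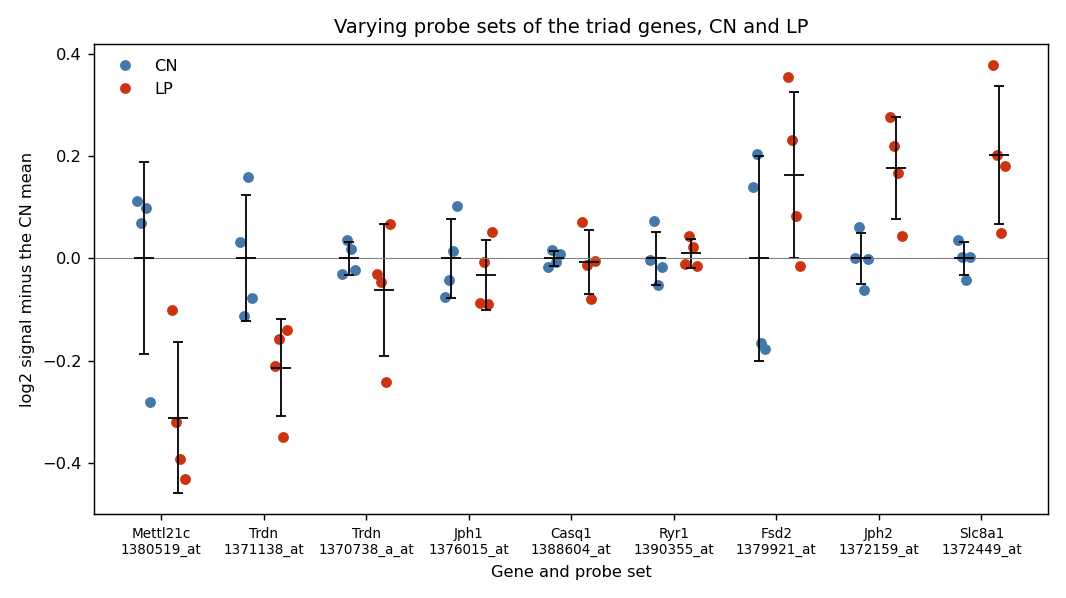
Log2 signal of each varying probe set in CN (blue) and LP (red) minus the CN mean, ordered by change; points are rats, and the black marks show mean and SD (n = 4 each). All LP points lie below the CN points for Trdn 1371138_at and above them for Slc8a1 1372449_at, and 1 CN rat of Mettl21c lies near the LP rats.

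Over the 14 member probe sets, 9 varied in CN and LP. Of these, 3 were called higher, where rank products called 13.1% of the 3974 varying probe sets and 1.68% of all 31042, and 2 were called lower, where it called 12.4% and 1.58%. An unadjusted limma p under 0.05 was reached by 4 of the 9, against 14.5% of the varying probe sets, and the groups did not overlap for 2 of the 9, against 7.9%. No probe set of the array passed limma after adjustment (smallest adjusted p 0.0742). Of all 31042, 2342 had an unadjusted limma p under 0.05, but only 576 of these were varying probe sets and the rest were nearly constant. The median change of the 9 was −0.0067 and their median size 0.16, beside 0.017 and 0.070 for all varying probe sets. The genes were chosen with earlier results of these arrays known, so these shares are a description.

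After the further 8 weeks, 8 member probe sets varied across CN-R and LP-R, and 0 were called. Rank products called 107 probe sets higher (0.345% of all and 3.45% of the 3100 varying) and 53 lower (0.171% and 1.71%). Of the 8, 0 reached an unadjusted limma p under 0.05, against 3.65% of the varying probe sets, and 1 did not overlap between the groups, against 3.84%. Limma called 0 probe sets of the array after adjustment (smallest adjusted p 0.539). Of all 31042, 1566 had an unadjusted limma p under 0.05, but only 113 of these were varying probe sets and the rest were nearly constant.

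The one without overlap was Fsd2, at 9.76, 9.74 and 9.69 in CN-R replicates 1, 2 and 4 and at 9.64, 9.67, 9.66 and 9.47 in LP-R replicates 1 to 4. All LP-R rats lay below the CN-R rats, by 0.022 at the nearest. Its change of −0.12 (SE 0.06) had an exact permutation p of 0.0571, a pfp of 0.118 and a limma adjusted p of 0.970.

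Mettl21c read 7.88, 8.09 and 8.16 in CN-R and 7.84, 8.16, 7.54 and 7.78 in LP-R. LP-R replicate 2 was as high as the highest control and LP-R replicate 3 the lowest of the 7 arrays, so the change of −0.21 (SE 0.17, pfp 0.109, exact permutation p 0.229) was not called. Without LP-R replicate 2 the change was −0.33 and the probe set was called lower.

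Jph2 read 10.60, 10.62 and 10.54 in CN-R and 10.56, 10.61, 10.63 and 10.47 in LP-R. Its groups lay among each other, with a change of −0.02 (SE 0.05). Trdn changed by −0.02 (SE 0.04) at 1371138_at and by −0.09 (SE 0.15) at 1370738_a_at, Casq1 by 0.0062 (SE 0.040), Atp2a1 by 0.02 (SE 0.02) and Ryr1 by 0.06 (SE 0.16). Jph1 (10.40), Srl (11.55), both probe sets of Slc8a1 (5.98 and 7.36) and the Trdn probe sets 1370198_at (12.53) and 1370739_x_at (7.97) were nearly constant, so whether Slc8a1 still differed in LP-R cannot be read from these values.

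**Figure D2:**
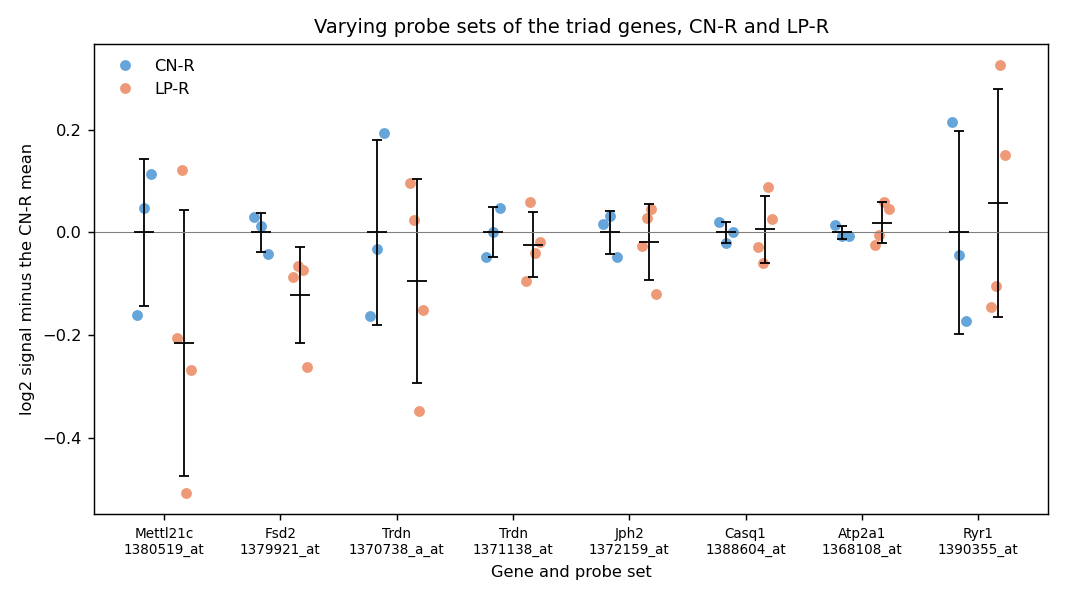
Log2 signal of each varying probe set in CN-R (n = 3, light blue) and LP-R (n = 4, orange) minus the CN-R mean, ordered by change; points are rats, and the black marks show mean and SD. Only for Fsd2 do the groups not overlap, and Ryr1, Trdn 1370738_a_at and Mettl21c spread widely within both groups.

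Whether a change differed between the comparisons was tested within each set of arrays by exchanging labels in all 2450 splits, two-sided, for the 2073 probe sets that varied in both. For Jph2 the change in LP exceeded that in LP-R by 0.20, with an exact p of 0.0388 and an adjusted p of 0.659 over the 2073. An exact p up to 0.05 was reached by 7.43% of these probe sets, so 1 of the 7 member probe sets that could be tested is not far from the background, and leaving out 1 array ended it in 9 of 15 cases (0.16 to 0.24). Fsd2, higher in LP and lower in LP-R by its means, had a difference of 0.28 (exact p 0.0645). Trdn 1371138_at had one of −0.19 (exact p 0.103) and Mettl21c one of −0.10 (exact p 0.696). For Ryr1, Casq1 and Trdn 1370738_a_at, the differences were −0.05, −0.013 and 0.03 (exact p 0.787, 0.791 and 0.849).

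**Figure D3:**
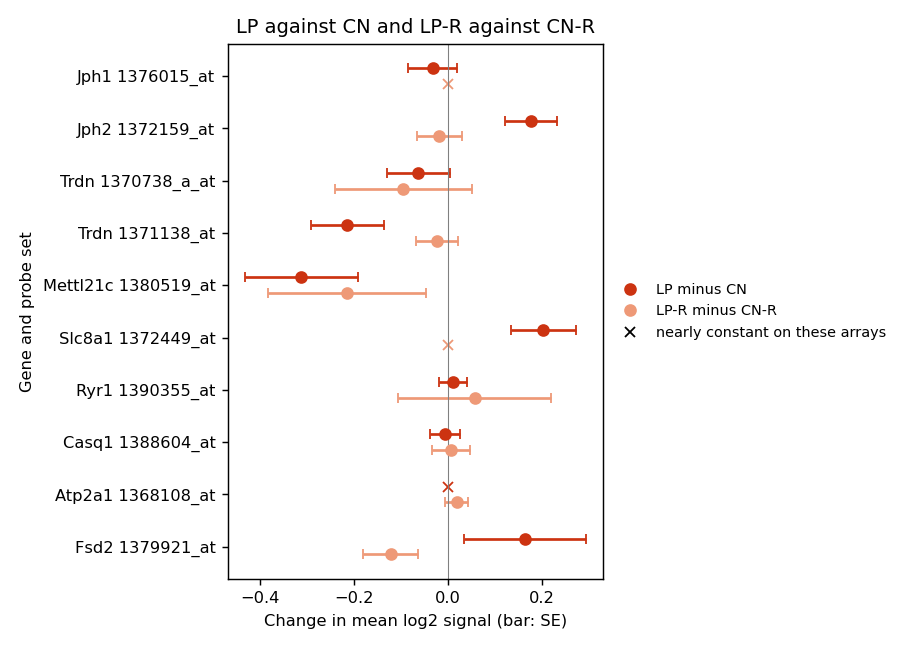
Change in mean log2 signal (horizontal axis, with SE) of each member probe set that varied in at least 1 comparison, for LP minus CN (red) and LP-R minus CN-R (orange). Crosses at 0 mark probe sets nearly constant on those arrays. Jph2 and Slc8a1 lie to the right in LP, Fsd2 has opposite signs, and Mettl21c lies to the left in both.

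Among the late arrays several members were high or low in the same rats, in both groups, a pattern noticed after the values were seen and given as a description. Ryr1 read 12.06, 11.80 and 11.67 in CN-R replicates 1, 2 and 4 and 11.70, 11.74, 12.17 and 12.00 in LP-R replicates 1 to 4. Trdn 1370738_a_at read 11.10, 11.23 and 11.46 in CN-R and 11.36, 11.29, 10.92 and 11.12 in LP-R, in exactly the reverse order of rats. CN-R replicate 1 and LP-R replicates 3 and 4 were high in Ryr1 and low in this triadin probe set.

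Casq1 read 12.83, 12.79 and 12.81 in CN-R and 12.78, 12.75, 12.90 and 12.84 in LP-R. Atp2a1 read 13.59, 13.56 and 13.56 in CN-R and 13.55, 13.57, 13.63 and 13.62 in LP-R. For both genes the same 3 rats as for Ryr1 were the highest of the 7. Across these 7 arrays, Ryr1 and Trdn 1370738_a_at had a Pearson's r of −0.97 and a Spearman's rho of −1, an r of −0.98 without the 2 arrays farthest from the median of Trdn, and an r of −0.97 after each group's mean was taken off. The r of Ryr1 was 0.89 with Atp2a1 and 0.84 with Casq1, and that of Casq1 with Mettl21c was −0.81, or −0.33 without the 2 arrays farthest in Mettl21c. These are among the largest of 28 pairs that share the arrays and their summarization. The other varying probe set of Trdn, 1371138_at, which was called in LP, was less closely tied to Ryr1. Its r with Ryr1 was −0.38 and its rho −0.36, with an r of −0.94 without the 2 arrays farthest from its median.

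Of the 3099 other varying probe sets of the late arrays, 36 had an r of at least 0.9 with Ryr1 and 79 one of at most −0.9, or 3.71% together. In CN and LP, the r between Ryr1 and Trdn 1370738_a_at was −0.19 over 8 arrays. There, 0.101% of the 3973 other varying probe sets had an r with Ryr1 of at least 0.9 or at most −0.9. Ryr1 itself varied little on these 8 arrays, with an SD of 0.039 beside 0.196 on the late arrays, so the shares are not on equal terms. The mean deviation of 8 varying fast fiber probe sets on the late arrays was highest in LP-R replicates 3 (0.14) and 4 (0.06) but was −0.04 in CN-R replicate 1. Slow fiber probe sets were at −0.12, −0.21 and 0.15 on the same arrays. The part of fiber makeup or of RNA quality in this pattern was not tested.

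**Figure D4:**
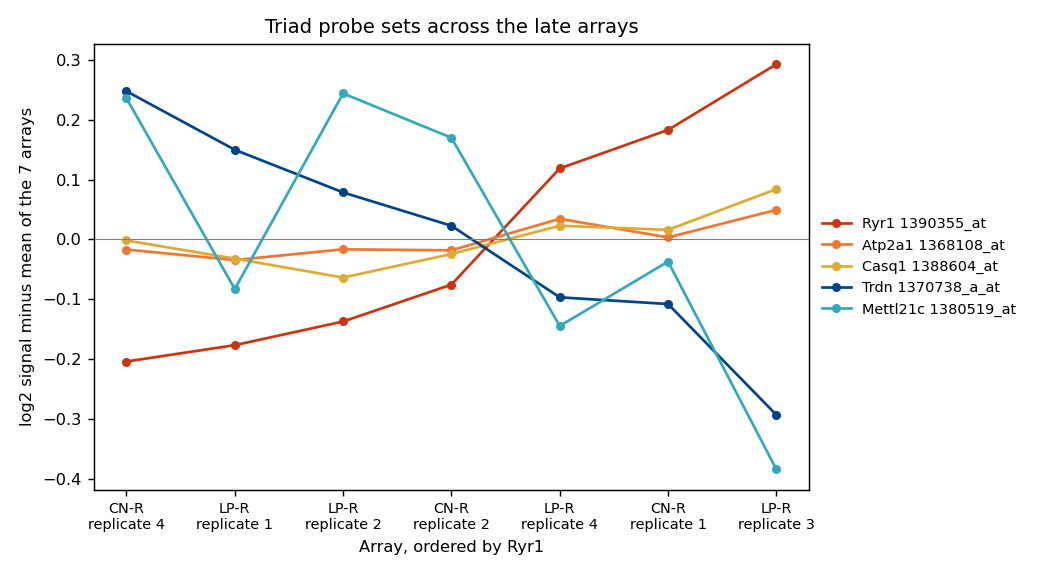
Log2 signal of 5 member probe sets on the 7 late arrays (horizontal axis, ordered by Ryr1), each minus its mean over these arrays. Ryr1, Atp2a1 and Casq1 are high in CN-R replicate 1 and LP-R replicates 3 and 4, where Trdn 1370738_a_at is low; Mettl21c is lowest in LP-R replicates 3 and 4 but near its mean in CN-R replicate 1.

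Over all 15 arrays, with each set centred on its own mean, the probe sets most like Jph2 among 1664 other varying ones with 1 symbol were those of Map7d1 (r 0.94), Limch1 (0.90) and Elovl5 (0.90). Those most like Trdn 1371138_at, among 1663, were Clip1 (0.94), Bod1l1 (0.93) and Eif3a (0.92). Slc8a1 did not vary in both sets and had no such measure. Arrays share their summarization, and these r are the highest of many.

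Other genes of the calcium cycle were followed in 6 lists, which hold 66 measured genes beside the members. Of the 66, 27 had a varying probe set in CN and LP and 28 in the late groups. The remaining genes stayed close to a constant and held no difference to test. In LP, 2 genes were called higher, 4 lower and 1 in both directions through different probe sets. Their 37 varying probe sets held 4 called higher and 7 called lower, beside the 13.1% and 12.4% of all varying probe sets. In LP-R, 1 gene was called lower, through 1 of 39 varying probe sets, beside 1.71%.

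Of the 6 genes of the voltage sensor, 3 varied in CN and LP and 5 in CN-R and LP-R, and 0 were called in either comparison. The closest in LP were Cacnb1, the beta subunit of the calcium channel (log2 change 0.08, SE 0.02, pfp 0.0714), which was called higher without CN replicate 1 and with the replicate number as a block, and Cacna1s, the voltage-sensing subunit itself (0.07, SE 0.03, pfp 0.160). All varying probe sets of this list had a higher mean in LP, with a median of 0.07.

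Of 15 other genes of the release channel complex, Pde4d and Asph were called lower in LP. Pde4d, a phosphodiesterase that breaks down cyclic AMP and is found with ryanodine receptors, was lower in all 3 of its varying probe sets, by 1.42-fold (1370569_at, log2 change −0.51, SE 0.14), 1.33-fold (1368750_a_at, −0.41, SE 0.14) and 1.22-fold (1392968_at, −0.28, SE 0.07). In each of them every LP array lay below every CN array (exact permutation p 0.0286 each). Its call held without each array in turn, and it was the 1 gene of the 6 lists called when rank products was run over the varying probe sets alone. In LP-R its probe sets had changes of −0.12, −0.16 and −0.08, and the last, 1392968_at, was without overlap between the groups (SE 0.0073, limma adjusted p 0.539) but was not called (pfp 0.174).

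Asph, whose transcripts include that of junctin, the partner of triadin, had a change of −0.21 (SE 0.11, pfp 0.0209) in LP. Homer1, a scaffold that binds ryanodine receptors, was called lower at 1368319_a_at (−0.12, SE 0.04) and higher at 1370454_at (0.14, SE 0.35) and 1370997_at (0.18, SE 0.12). Its remaining varying probe sets, 1370656_a_at (−0.07, SE 0.03) and 1368318_at (−0.04, SE 0.04), had lower means in LP and were not called. The opposite probe sets of Homer1 can match different transcripts of the gene, which was not tested. Casq2, the calsequestrin of heart and slow fibers, was not called, with a late change of −0.21 (SE 0.05, pfp 0.0561) at 1387401_at, where the groups did not overlap.

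Of 11 other genes of the junction membranes and scaffold, 2 were called higher in LP. Sypl2, a triad membrane protein known in mouse as mitsugumin, was higher by 0.15 (1379734_at, SE 0.04, pfp 0.0235), without overlap between the groups (exact permutation p 0.0286), and by 0.10 (SE 0.05, pfp 0.0679) at its other varying probe set. Ank1, whose small muscle form ties the reticulum to the myofibrils, had a change of 0.19 (SE 0.13, pfp 0.0380). In LP-R the changes of both genes were −0.03 and −0.06 for Sypl2 and −0.06 for Ank1, and 0 of the 11 were called.

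Calcium uptake held 5 other genes, and 0 were called in either comparison, among them Sln and Pln, which inhibit the pump (late changes −0.30, SE 0.32, and −0.09, SE 0.04). Of 15 other transport genes, Stim1, the calcium sensor of the reticulum that opens store-operated channels, was called lower in LP (−0.22, SE 0.13, pfp 0.0463) and had a change of 0.03 (SE 0.06) in LP-R. Of 14 genes of calcium-calmodulin signaling, Camk2b, a kinase that calmodulin activates, was called lower in LP (−0.26, SE 0.10, pfp 0.00924). Rcan2, a regulator of calcineurin, was called lower in LP-R (−0.23, SE 0.07, pfp 0.0498), without overlap between the groups at 1374235_at (exact permutation p 0.0286). Its other varying probe set, 1389066_at, had a change of −0.16 (SE 0.12, pfp 0.203) with overlapping groups and was not called.

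Without 1 array in turn, the call was lost in 2 of 8 omissions for Camk2b, 3 for Asph, 4 for Sypl2, and 6 each for Ank1 and Stim1, and in 4 of 7 for Rcan2, whose call was also lost with quantile normalization. Homer1 was called in both directions in 0 of the 8 omissions. Over the lists, 0 to 4 genes were then called higher and 1 to 7 lower in LP. In LP-R, 0 to 2 were called higher and 0 to 5 lower, and 4 were called lower, with Casq2, Ppp3r1 and Sln beside Rcan2, when each probe set was centred before the permutations.

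**Figure D5:**
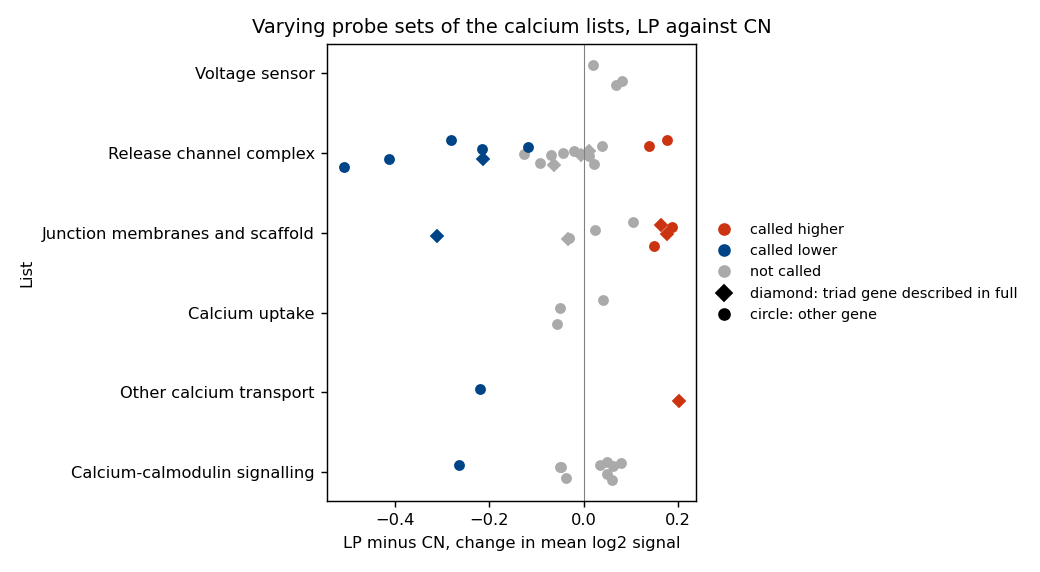
Change in mean log2 signal, LP minus CN, of every varying probe set of the 6 calcium lists (lines are lists, spread vertically for visibility). Diamonds are the genes described in full and circles the other genes, red where called higher, blue where called lower and gray where not called. The 3 lowest circles of the release channel complex are Pde4d, and the voltage sensor lies to the right of 0 without a call.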

How the data were processed

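The authors made the deposited log2 signals per probe set with FARMS in R, as the methods state. No further normalization was applied. Of 26041 probe sets nearly constant in both sets of arrays, 94.7% differ between the early and the late arrays by over 0.01 (median 0.103), so each comparison was kept within its set. Log2 signals ran from 5.24 to 14.07 early and from 5.38 to 14.16 late. The number of arrays limits the precision. The 57 control probe sets were left out. Gene symbols came from the platform annotation: 20826 of the 31042 probe sets carry 1 symbol, 436 several and 9780 none.

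Rank products, named in the methods, was coded in Python 3.11.15 (pandas 2.3.3, numpy 2.4.6, scipy 1.17.1). Every array of a group was paired with every array of the other, and 100 permutations within arrays were drawn (seed 1). Limma 3.58.1 (R 4.3.3) was fitted to each comparison alone over all probe sets, with its default prior and Benjamini-Hochberg adjustment. SE are those of the limma fit. Exact permutation tests were two-sided over all splits of the arrays and were not adjusted unless stated. Rank products and limma were tested on simulated data, and the exact test of a single comparison was checked on small made-up vectors. The exact test between the comparisons was not tested in this way. Promoters are from RefSeq, and 7 of 10 members matched by symbol. The members, lists and tests were chosen with earlier results of these data known. Genes outside the members were named when called, or when among the 4 of smallest limma p in their list, and Myh7, Myl2, Tnni1, Myod1, Kdr and the genes most like a member were named beside these. The methylation arrays were not analysed here, and CN-R replicate 3 was not used here. Alternatives were median centring, quantile normalization, filters on constant or dim probe sets, a replicate block, another limma prior, CN-R replicate 4 placed in LP-R and omission of each array. Rank products with centred probe sets was added once the values had been seen, and the calls of the listed genes were recomputed under the same settings.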

Additional observations from a re-analysis of the deposited data

Results flagged for a closer look

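Mettl21c in CN replicate 4 stood apart from the other CN arrays, at a log2 signal of 8.09 where the others read 8.44 to 8.49. The gap is 0.887 of the range of the 4 arrays. Without this rat the change in LP was −0.40 in place of −0.31.

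Fsd2 in LP-R replicate 4 read 9.47 where the other LP-R arrays read 9.64 to 9.67, a gap of 0.887 of the range. Without it the change in LP-R was −0.07 in place of −0.12. Of 26 groups of 4 arrays looked at, these 2 stood out in this way, and chance flags about 1 in 20 groups.

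The change of Jph2 in LP exceeded its change in LP-R by 0.195 in log2 signal (exact permutation p 0.0388, adjusted p 0.659 over the 2073 probe sets tested). The change was 0.18 (SE 0.06) in LP and −0.02 (SE 0.05) in LP-R, so nearly all of the difference lies in LP against CN.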

How the results depend on the processing

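With rank products over the varying probe sets alone, 0 members were called higher and 0 lower in LP (11 and 20 probe sets in all, in place of 522 and 492), with 5 and 2 in all in LP-R in place of 107 and 53. Over the probe sets above the median signal, 0 members were called higher and 2 lower in LP (114 and 236 in all), with 51 and 29 in all in LP-R. Of the other listed genes, 0 were then called higher in LP and 1 and 2 lower. Fewer probe sets enter both settings. Without each array in turn, 0 to 3 members were called higher and 1 to 2 lower in LP, 0 to 0 higher and 0 to 1 lower in LP-R, and 1 to 4 members in LP and 0 to 1 in LP-R had an unadjusted limma p under 0.05. Over all probe sets these omissions gave 104 to 635 higher and 133 to 626 lower in LP, and 30 to 148 and 2 to 133 in LP-R. Median centring, quantile normalization and the other limma prior changed no member call or count.

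Late counts over all probe sets depended on the permutations: with probe sets centred first, 64 were called higher and 154 lower, and with CN-R replicate 4 counted as LP-R 332 and 15, with no member called in either. The latter placement gave 5 other listed genes higher and 0 lower. The cause was not tested. With the replicate number as a block, 3 members were called higher and 2 lower in LP and 0 in LP-R, as without it, with 47 and 138 probe sets in all in LP-R. LP-R replicate 3 has no partner and drops out of that pairing. Deviations of same-numbered arrays correlated at 0.55, −0.03, 0.17 and 0.40 in CN and LP and at 0.04, 0.19 and 0.22 in CN-R and LP-R. Those of differently numbered arrays ran from −0.54 to 0.33 in CN and LP, below the 0.55 and the 0.40. In CN-R and LP-R they ran from −0.32 to 0.28. The main tests did not pair the rats by number, and whether the numbers mark a shared step was not tested. No member changed direction while called. Signal over background is not known for these summarized values, and a change in a probe set drawn to a constant cannot be seen.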

Other observations

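Most marker lists with varying genes had lower means in LP-R, where the median change over all varying probe sets was −0.02. By the probe set of highest mean, all varying genes were lower for fast fibers (3, median −0.05), fibroblasts (5, −0.10) and smooth muscle (2, −0.11). The 1 varying gene of blood had a change of −0.36. Over all 8 varying fast fiber probe sets, mean deviations were −0.04, −0.08 and 0.02 in CN-R replicates 1, 2 and 4. In LP-R replicates 1 to 4 they were −0.03, −0.06, 0.14 and 0.06, so these probe sets were not lower throughout LP-R. Myod1, the 1 gene measured of the 3 on the satellite cell list, was called lower. It read 8.33 ± 0.21 in CN-R (SD, n = 3) and 7.92 ± 0.25 in LP-R (SD, n = 4). With 1 gene, a change in the number of satellite cells was not tested. The 1 varying endothelial gene had a change of 0.01. The Myod1 groups overlapped, with 8.18 to 8.57 in CN-R and 7.67 to 8.26 in LP-R. Rank products called 1.71% of the varying probe sets lower in LP-R. All 9 measured slow fiber genes varied, and taken by the probe set of highest mean all 9 were lower in LP (median −0.09) and in LP-R (median −0.17). In CN and LP, the mean deviation of 12 varying slow fiber probe sets was lowest in LP replicate 1, at −0.24. LP replicates 2 to 4 were at −0.03, 0.06 and 0.02, within the CN range of −0.09 to 0.13. On the late arrays, 14 varying slow fiber probe sets had mean deviations of 0.15, 0.18 and −0.02 in CN-R replicates 1, 2 and 4. LP-R replicates 1 to 4 were at −0.14, 0.15, −0.12 and −0.21, so these probe sets were not lower throughout LP-R. The slow myosin heavy chain Myh7 read 12.78 ± 0.22 in CN-R (SD, n = 3) and 12.64 ± 0.23 in LP-R (SD, n = 4), the ventricular and slow light chain Myl2 12.38 ± 0.17 and 12.11 ± 0.17, and slow troponin I, Tnni1, 12.11 ± 0.17 and 11.84 ± 0.20. Rank products called 0 of the 9 lower in LP and 1, Myh7 through another probe set, in LP-R. With probe sets centred before the permutations, 4 were called lower in LP-R, and without each array in turn 0 to 7. Among them is Casq2, the slow and cardiac counterpart of Casq1. The fast fiber genes had a summed log2 signal of 16.91 to 16.94 in CN-R and 16.90 to 16.94 in LP-R.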
